A study of Mus musculus with 15 samples.

Results

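Ba/F3-beta cells, a mouse pro-B cell line that needs interleukin-3 (IL-3) to grow, were given siRNAs against both Stat5a and Stat5b or a scrambled control siRNA and then stimulated with IL-3 for 30 min. The former are called knockdown cells below, and the latter control cells. Their comparison used 6 of the 15 arrays of the series, chosen by sample title. Each side had 1 array on each of the 3 Affymetrix murine designs, U74A, U74B and U74C, which hold different probe sets. The other 9 arrays held control siRNA cells without IL-3, control siRNA cells after 2 h of IL-3 and Stat5 siRNA cells after 2 h of IL-3, again with 1 array per design, and served here to show where the levels at 30 min stood. All groups came from 1 cell line and carried an siRNA. None of the 15 arrays held Stat5 siRNA cells without IL-3. A difference that was present before IL-3 and a difference in the response to IL-3 therefore cannot be told apart. The dose of IL-3 and the siRNA sequences were not given in the sources used here.

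STAT5A and STAT5B are closely related transcription factors. Binding of IL-3 to its receptor, an IL-3-specific alpha chain with a shared beta chain, activates the kinase JAK2, which phosphorylates STAT5, and STAT5 dimers then enter the nucleus and bind the DNA element TTCNNNGAA in genes such as Cish and Socs1 that feed back on the receptor. Interferons use a sister route through the kinases JAK1 and TYK2, which acts on elements built from GAAA repeats in antiviral genes.

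Values are MAS5 signals, a linear intensity per probe set. A probe set counted as measured when at least 1 of its 2 arrays reached a floor signal of 119.866, and a signal under the floor was raised to it before the log2 ratio of Stat5 siRNA over control siRNA was taken. A fold that rests on such a signal is a bound and is written "at least". Genes were called higher or lower at 2-fold or more, a threshold of size. With 1 array per side and design there was no replicate check and no test. The number of arrays sets the precision. The spread of a single log2 ratio, read as an SD from pairs of probe sets of 1 gene, came to 0.22 for U74A, 0.20 for U74B and 0.34 for U74C. It covers probe sets within 1 pair of arrays, and neither repeated arrays nor cultures. Pairs were used only where no signal was under the floor and neither name marked a probe set that can cross-hybridise. Among such pairs within U74C 4.82% stood 2-fold or more apart, against 0% within U74A.

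Among genes read on U74A or U74B, several of the called genes belonged to named groups. Genes of the interferon response and the chemokine gene Ccl5 were higher in Stat5 siRNA cells, with Ccl5 at least 13.8-fold higher. The stress factor gene Ddit3 and the alpha-globin gene Hba-a1 were higher too. The feedback genes Cish and Socs1, the transcription factor gene Bhlhe40, S100a4, Adam8, L1cam and the siRNA targets themselves were lower. Of 8124 measured genes 25 were called higher, 0.308% of those measured, and 31 were called lower, 0.382%, with a median log2 ratio of 0.0008 over all genes. By probe set 55 of 13216 were higher (0.416%) and 59 lower (0.446%). At such small shares, a gene list below with 0 called genes is near the share over all genes. Its 0 is therefore not a trait of that list.

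The calls were not spread evenly over the array designs. U74C gave 37 of the higher and 44 of the lower probe sets, and 1.98% of its measured probe sets were called, against 0.487% on U74A and 0.25% on U74B. The log2 signals of both 30 min arrays correlated at 0.967 on U74A, 0.958 on U74B and 0.910 on U74C, across probe sets within 1 pair of arrays. Of the called genes, 12 higher and 12 lower ones were read on U74A or U74B. The other 13 higher and 19 lower genes were read only on U74C, where 6 and 8 of them had no measured probe set other than ones of a kind that can cross-hybridise, as their names show. Stat5a was the 1 called gene that rested on more than 1 probe set. Just inside the threshold lay Lgals9 (1.05) and Stat5a (-1.03), and just outside it Cerk (0.98) and Xbp1 (-0.97).

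**Figure D1:**
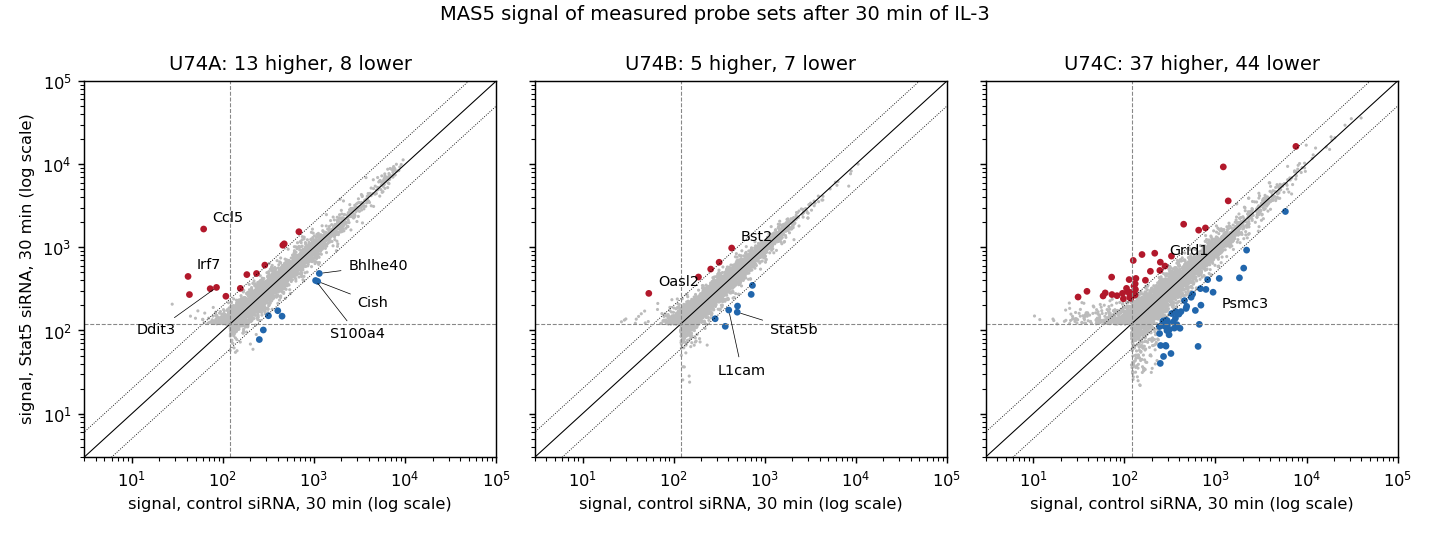
Signal of each measured probe set with control siRNA (x axis) and Stat5 siRNA (y axis) after 30 min of IL-3, both on log scales, with 1 panel per array design and 1 array per axis. Red and blue points are 2-fold or more higher and lower after signals under the floor (dashed lines) were raised to it, grey points are the other measured probe sets, the solid line marks equal signals and the dotted lines 2-fold. Ccl5 and Irf7 stand far above the diagonal on U74A, Cish, S100a4 and Bhlhe40 below it, and the cloud is widest on U74C.

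Markers of the cell type were few. Of 17 pro-B and B lineage markers with a probe set only Cd79b, Ptprc and Spn reached the floor on any of the 5 conditions, while Cd79a, Vpreb1, Igll1, Ebf1, Pax5 and Rag1, which define that lineage, were under the floor on every array. Of 8 markers of the IL-3 receptor and of blood cells 6 reached it, among them both shared beta chain genes, Csf2rb and Csf2rb2, and Il3ra. None of 12 T and NK cell markers did. The floor was also reached by 4 of 17 myeloid and mast cell markers and 6 of 8 erythroid and megakaryocyte markers. Of 12 fibroblast and epithelial markers 4 reached it, Cdh1, Col1a2, Epcam and Fbln1. The arrays therefore held IL-3 receptor transcripts, with the defining pro-B transcripts under the floor and some markers of other cell types above it. These markers alone do not identify the cell type.

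Both siRNA targets were lower. The brighter Stat5a probe set read 548 in control cells and 277 in knockdown cells, and the dimmer one 316 and 150.3, so that 50.6% and 47.6% of the control signal remained. Either may also bind other transcripts, and the gene's value, -1.03, was -0.69 with the floor doubled and -0.98 with the brighter probe set alone. Stat5b, read on U74B, gave 499 and 166, which left 33.2%. A second Stat5b probe set on U74A gave 73.2 and 30.8, both under the floor, and with the floor halved it entered the gene's value, which was then -0.94. The measured probe sets of both genes were lower on both Stat5 siRNA arrays than on all 3 control arrays of their design, an order found at 7.59% of all measured genes. The knockdown was partial at the level of RNA, and no protein was measured.

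Of 25 measured JAK-STAT factors and receptors, the only genes past 2-fold were Stat5a and Stat5b, and the list's median log2 ratio was -0.13. Stat3 (0.09), Stat6 (-0.18), Jak1 (-0.06), Jak3 (0.12), Tyk2 (-0.06) and both interferon alpha receptor chains, Ifnar1 (-0.19) and Ifnar2 (0.14), were less than 1 SD of a single ratio from 0. Jak2, the kinase that the IL-3 receptor uses, had signals of 149 and 209 (0.49). Receptor genes varied. Il3ra, the IL-3-specific alpha chain, read 145 and 126 (-0.21), and the erythropoietin receptor gene Epor had a ratio of -0.13. Csf2rb, the shared beta chain, read 8361 and 5446 on U74B and 974.5 and 717 on U74A, and its sister Csf2rb2, which pairs only with the IL-3 receptor, 2542 and 1619 (-0.65). Il4ra, the IL-4 receptor alpha chain, went from 151 without IL-3 to 289 at 30 min with control siRNA and 169 in knockdown cells (-0.78). At 2 h Csf2rb2 differed less (-0.29), while Il4ra read 649 and 356 (-0.87).

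Interferon response genes were the largest group among the higher genes. Across 6 lists, of interferon regulatory factors, oligoadenylate synthetases, interferon-inducible GTPases, antiviral effectors, double-stranded RNA sensors and MHC class I genes, 40 of 88 listed genes were measured. Of these 8 were called higher and 0 lower, 37 lay above 0, against 50.1% of all measured genes, and their median log2 ratio was 0.40. At 26 of the 40 genes both Stat5 siRNA arrays, at 30 min and 2 h, were above all 3 control siRNA arrays, an order found at 6.54% of all measured genes. At 12 of the 40 genes the value held a bound. The side of 0 of a bound was fixed by which array reached the floor, so it adds no separate support to the 37. Irf7 and Oasl2, among others, reached the floor at 30 min only with Stat5 siRNA on the probe set used, which favours that order too. With the floor doubled, which lowers each bound, 3 genes of these lists were called higher. In bulk RNA, fewer cells with a transcript and less transcript per cell cannot be told apart, here and below.

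Among the regulators, Irf7, the factor that amplifies interferon production, had a U74A signal of 41.4 in control cells and 447 in knockdown cells at 30 min, at least 3.73-fold higher. Without IL-3 it was 38.5, and at 2 h 44.2 with control and 329 with Stat5 siRNA. The 3 control arrays were under the floor and both siRNA arrays well above it. A U74C probe set of Irf7 that can cross-hybridise was brighter and read 1220.4 and 9275, a 7.60-fold difference that was not used for the gene's value. Irf1, which both interferon and cytokine receptors induce, read 131 without IL-3, 183 in control and 470.1 in knockdown cells at 30 min (1.36). At 2 h it was under the floor on both sides, at 43.8 and 34.1, so its high level was seen only on the 30 min array. Irf9, which binds DNA in a complex with STAT2, read 207 and 317 (0.62) and was also above the control arrays at 2 h, at 261 against 166. Stat2, its partner, read 183 and 219 (0.26), below the 264 of cells without IL-3. Irf3, the factor that RNA sensors activate, read 134 and 152 (0.18).

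The oligoadenylate synthetases, enzymes that sense double-stranded RNA and switch on RNase L, and their catalytically inactive relatives gave 3 higher genes of 6, with a median of 0.96. Oas2 read 187 in control and 439.7 in knockdown cells (1.23), against 202 without IL-3 and 211 and 533 at 2 h. Oasl2 read 53.4 and 279, at least 2.33-fold higher, and Oasl1 255 and 547 (1.10). Oas3, measured on U74C, read 1026 and 1809 (0.82), and Oas1c 182 and 209 (0.20). All 4 genes above 0.8 had both siRNA arrays above every control array. Oas1b went the other way, at 232 with control and 113 with Stat5 siRNA (-0.95), but of its 5 signals only that of the control array at 30 min was above the floor.

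Of 10 measured effector genes 2 were called higher, and at 8 both siRNA arrays were above every control array, with Trim25 (0.10) and Pml (-0.00) as the exceptions. Of 4 measured GTPase genes 1 was called higher, and all 4 had that order. Bst2, the tetherin that holds budding virus on the cell, read 434 and 981 at 30 min (1.18) and 423 and 1069 at 2 h. Ifi27 read 682 and 1541 (1.18). Rsad2, the antiviral enzyme viperin, was 67.0 in control and 211 in Stat5 siRNA cells, at least 1.76-fold higher. Lgals3bp, a secreted glycoprotein, was among the brightest members, at 7648 and 16361 on U74C (1.10), and its U74A probe set read 344 and 565 (0.72). Of the GTPases that act on pathogen-containing vacuoles, Irgm2 read 108 and 258, at least 2.15-fold higher, Irgm1 63.1 and 162, and Gbp7 284 and 369.9 (0.38). Gbp7 and Irgm1 stood further apart at 2 h, at 266 and 708 and at 68.5 and 269. Isg15, a ubiquitin-like modifier, crossed the floor only with Stat5 siRNA, at 124 against 62.3, so its bound of at least 1.04-fold says little about the size.

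Of the double-stranded RNA sensors and adaptors 3 of 4 measured genes lay above 0, and of these and the MHC class I genes 0 were past 2-fold. Ddx58, which encodes the sensor RIG-I, read 627 and 1020.0 (0.70), and Adar, which edits double-stranded RNA, 496 and 692 on U74B. Eif2ak2, the double-stranded RNA-activated kinase PKR, read 206 and 212 (0.04), and Mavs, the adaptor of RIG-I, had a log2 ratio of -0.04. All 10 measured MHC class I genes were above 0, with a median of 0.28. B2m, the light chain of MHC class I, read 1931 and 3789 (0.97) at 30 min and 1741 and 4355 at 2 h, while cells without IL-3 had 3051, between the control and the siRNA levels. The heavy chain genes H2-K1 (0.87) and H2-D1 (0.85) came only from probe sets open to cross-hybridisation. The 3 H2-D1 probe sets gave 0.85, 0.85 and 0.87. The peptide transporter gene Tap1 read 661 and 995 on U74A (0.59) but 207 and 209 on U74B (0.02). Of the RNA silencing machinery, which handles siRNA, 0 of 11 measured genes were past 2-fold, with a median of 0.07 and Tarbp2 the highest at 0.61.

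**Figure D2:**
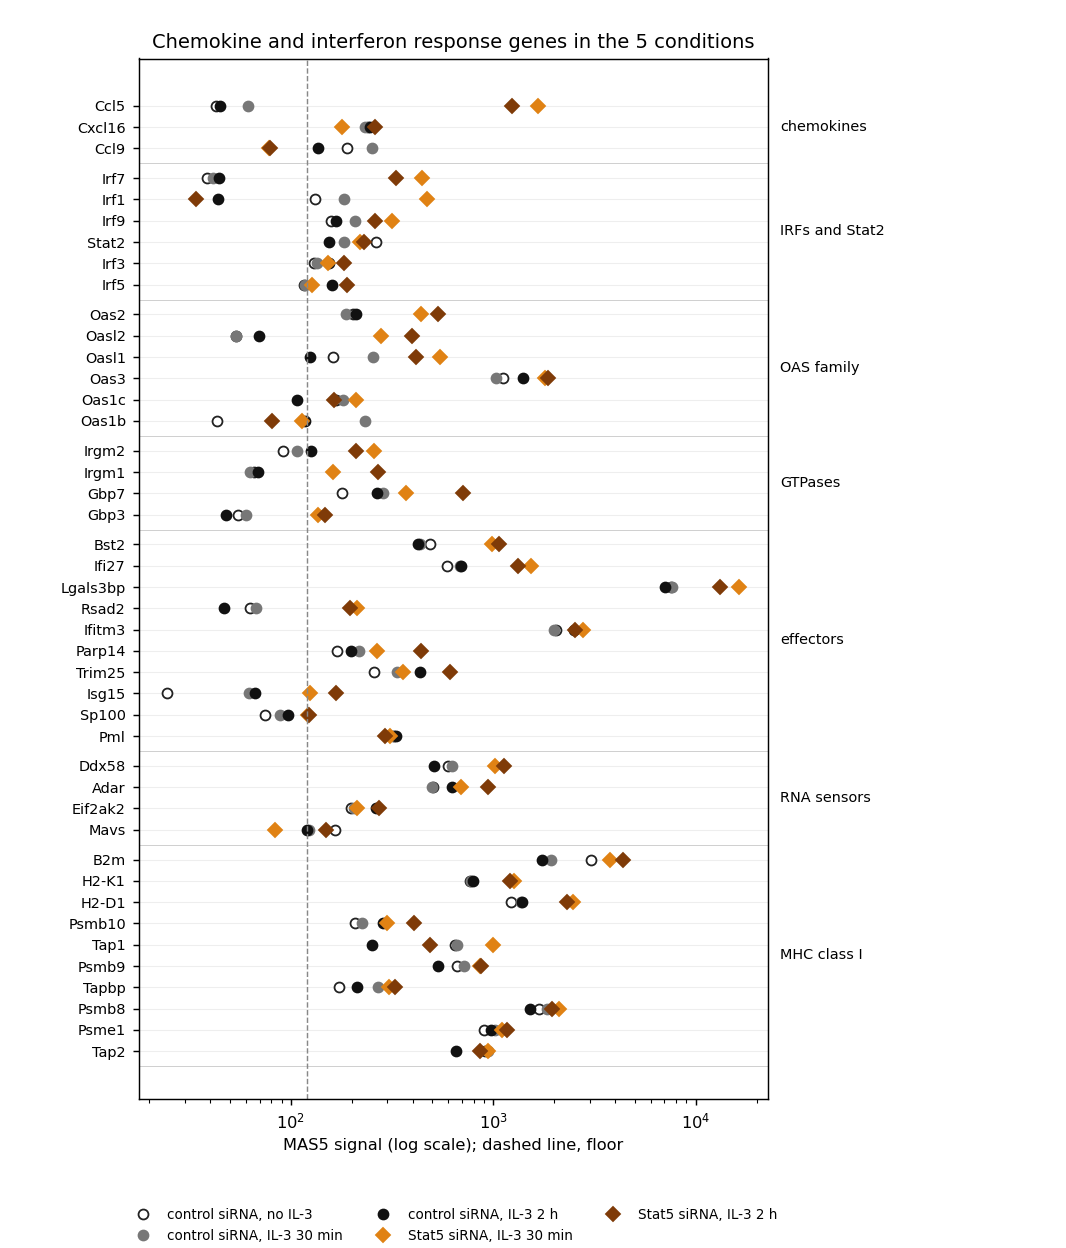
MAS5 signal (x axis, log scale) of the 3 measured chemokine genes and the 40 measured interferon response genes in the 5 conditions, with 1 array per point and the gene's brightest measured probe set, leaving out those that can cross-hybridise where the gene has another. Circles are control siRNA (white without IL-3, grey at 30 min, black at 2 h), diamonds Stat5 siRNA (orange at 30 min, brown at 2 h), and the dashed line is the floor of 119.866. For Ccl5, Irf7, Oas2, Oasl2, Bst2 and Ifi27 both diamonds lie to the right of all 3 circles, while Oas1b and Mavs show the opposite order at 30 min.

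Ccl5, a chemokine that draws T cells and monocytes, showed the largest ratio of any gene. Its signal was 42.8 without IL-3, 61.4 at 30 min and 44.7 at 2 h with control siRNA, all under the floor, and 1659.8 at 30 min and 1239 at 2 h in knockdown cells. The difference was at least 13.8-fold at 30 min and at least 10.3-fold at 2 h. Lgals9, which encodes galectin-9, was on no list and read 234 and 484 (1.05) at 30 min and 234 and 349.7 at 2 h. Of 18 listed chemokines 3 were measured. Ccl9 was lower, at 251 and 77.8, at least 2.09-fold, and was lower on both siRNA arrays than on all control arrays, whereas Cxcl16 read 233 and 179.9 (-0.37). The NF-kB factors and inhibitors, which also act on Ccl5, had 0 of 4 measured genes past 2-fold and a median of -0.003.

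The promoters of these genes were searched for both elements in the RefSeq table of GRCm38.p6, from 250 bases before to 50 bases after the gene's start. TTCNNNGAA reads the same on both strands, and the GAAA pair, which is GAAA, any 2 bases and GAAA again, was searched on both strands. The GAAA pair stood in 15 of 35 promoters of measured interferon list genes (42.9%), against 3.44% of all 32851 promoters. The lists hold known interferon response genes, where such elements are frequent, so this share describes the lists and not the siRNA comparison. Among the 15, Bst2 and Irgm2 were the called genes. TTCNNNGAA stood in 8 of the 35 (22.9%), against 8.3% of all promoters. Windows of 60 bases are shown for higher interferon-linked genes because in 2 of them, Bst2 and Irgm2, both elements lie side by side or overlap. Capitals mark the matches, and the strand is that of the gene. Overlapping matches form 1 run of capitals.
Bst2, chr8:71537568-71537627, minus strand: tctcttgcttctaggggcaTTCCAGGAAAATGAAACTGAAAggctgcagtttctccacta
Irgm2, chr11:58214882-58214941, plus strand: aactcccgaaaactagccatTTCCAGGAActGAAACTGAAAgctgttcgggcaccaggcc
Irf1, chr11:53769898-53769957, plus strand: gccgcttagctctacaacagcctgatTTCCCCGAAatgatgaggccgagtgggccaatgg
Lgals9, chr11:78984945-78985004, minus strand: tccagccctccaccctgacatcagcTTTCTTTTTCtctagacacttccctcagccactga
B2m, chr2:122147523-122147582, plus strand: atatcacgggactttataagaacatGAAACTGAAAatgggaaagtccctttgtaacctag
Bst2 holds 1 TTCNNNGAA and 2 GAAA pair matches, Irgm2 1 of each, Irf1 only TTCNNNGAA, and Lgals9 and B2m only the GAAA pair, which in Lgals9 lies on the other strand. A match describes the letters of the window and is not a binding site, and no binding was measured.

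Of 25 listed targets known from blood cells 16 were measured, 3 were called lower and 0 higher, 14 lay below 0, against 49.9% of all measured genes, and the median log2 ratio was -0.38. The list is made of genes that earlier work linked to STAT5, and 3 of its members were also in the selection described next. At 3 of the 16 genes the value held a bound, whose side of 0 was fixed by which array reached the floor. Cish, which encodes a feedback inhibitor of cytokine receptors, read 108 without IL-3, 1097 in control and 389 in knockdown cells at 30 min, 2.82-fold lower. Bhlhe40, a basic helix-loop-helix repressor, read 347, 1143 and 485 in the same order, 2.36-fold lower. Socs1, an inhibitor of JAK kinases, read 35.1, 277 and 101, at least 2.31-fold lower. For each of the 3 genes the knockdown level lay between those of the control cells without IL-3 and at 30 min. With the floor doubled the bound for Socs1 was under 2-fold.

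Other STAT5 targets gave smaller ratios. Cdkn1a, the cell cycle inhibitor p21, read 213, 731 and 445 on its brighter probe set and had a gene value of -0.63. Id1, an inhibitor of helix-loop-helix factors, read 49.97, 368 and 257 (-0.51). The receptor gene Tnfrsf13b read 1345 and 918 (-0.55) and was further apart at 2 h, at 2091 and 643 (-1.70). Mcl1, a survival factor, read 659 and 479 on U74A (-0.46), Dusp5 2379 and 1806 (-0.40) and Myc 527 and 452 (-0.22). Both probe sets of the kinase gene Pim1 were induced by IL-3 but disagreed on the siRNA, at 307 and 186 (-0.72) and at 908 and 924 (0.03). Socs2, at 0.08, and Ccnd3, at 0.10, were the 2 members above 0. Socs3, another SOCS family inhibitor, barely reached the floor, at 127 and 36.6 on the probe set used, so its ratio of -0.09 is a bound.

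**Figure D3:**
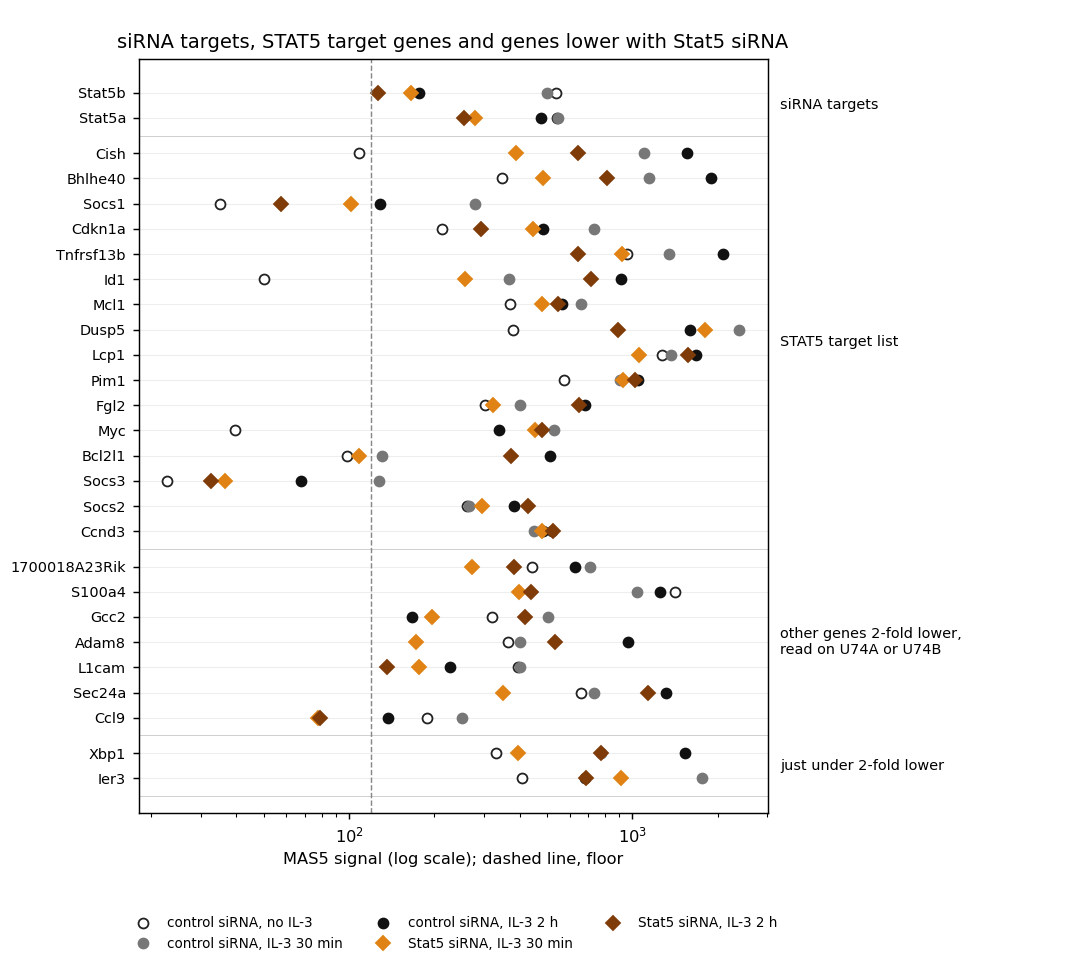
MAS5 signal (x axis, log scale) in the 5 conditions for the siRNA targets, the 16 measured genes of the STAT5 target list, the other genes 2-fold or more lower that were read on U74A or U74B, and Xbp1 and Ier3, which lay just under 2-fold. There is 1 array per point and 1 probe set per gene, the brightest of those used for it, symbols are circles for control siRNA and diamonds for Stat5 siRNA, and the dashed line is the floor. For Cish, Bhlhe40 and Xbp1 the Stat5 siRNA signal at 30 min lies between both control signals, whereas S100a4 was 399 with Stat5 siRNA, below all 3 control arrays.

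The promoters of Cish and Socs1 are shown because these were the lower feedback genes with matches. The 30 bases of Cish run from just before to just after its start and hold 2 TTCNNNGAA matches. The window of Socs1 holds 2 overlapping GAAA pair matches and no TTCNNNGAA. Capitals again mark the matches.
Cish, chr9:107296654-107296683, plus strand: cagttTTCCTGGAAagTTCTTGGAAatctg
Socs1, chr16:10785582-10785641, minus strand: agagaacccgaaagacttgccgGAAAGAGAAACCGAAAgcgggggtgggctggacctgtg
TTCNNNGAA stood in 6 of the 25 lower genes that have a promoter there (24.0%) and in 4 of 19 higher genes (21.1%), against 8.18% of 6650 promoters of measured genes. Of genes read on U74A or U74B it stood in 1 of 11 lower ones (9.09%), Cish, and in 3 of 9 higher ones (33.3%), Bst2, Irf1 and Irgm2. The GAAA pair stood in 1 of 25 lower genes (4.0%), Socs1, and in 3 of 19 higher genes (15.8%), Bst2, Irgm2 and Lgals9. Promoters of measured genes held it at 3.44%. Of genes read on U74A or U74B it stood in 1 of 11 lower ones (9.09%) and 3 of 9 higher ones (33.3%).

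The study selected genes that IL-3 raised 2-fold or more at 30 min, as it did 0.711% of measured genes here, and that Stat5 siRNA lowered 2-fold or more. Under the floor used here 17 probe sets met both conditions, 3 on U74A, 1 on U74B and 13 on U74C. Both ratios share the control array at 30 min, so a high reading of that array alone would put a probe set in the selection. Of all 13216 measured probe sets 59 were lower (0.446%), whichever way IL-3 moved them. The probe sets that IL-3 raised were not counted alone, so the share of them that was lower is not given. The 3 probe sets on U74A were those of Cish, Bhlhe40 and Socs1, and the 1 on U74B had no gene symbol. Of the U74C probe sets with a symbol, those of Chchd4, Hmgb2 and Dnajc21 were not matched by other probe sets of the same gene, as Chchd4 read 587 and 666 on U74B (0.18), Hmgb2 738 and 623 on U74A (-0.25) and Dnajc21 186 and 192 on U74B (0.05). 1700113H08Rik and Ppil6 were measured only by probe sets open to cross-hybridisation. Tox and Gm128 each rested on a single U74C probe set, and their other probe sets were under the floor on every array. Tox read 822 and 408 (-1.01), Gm128 1102 and 423 (-1.38), 1700113H08Rik 1835 and 430.1 (-2.09), Ppil6 684 and 319 (-1.10) and 2700046A07Rik 269 and 48.7, at least 2.25-fold lower. At 2 h 1700113H08Rik still read 829.9 and 415, while Tox read 538 and 530.2 and Gm128 1127 and 1015.

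Just short of the threshold lay further IL-3-induced genes. Xbp1, the transcription factor of secretory cells and the unfolded protein response, read 329.7 without IL-3, 774 in control and 394 in knockdown cells at 30 min (-0.97), and 1539 and 777 at 2 h (-0.99). On the list of the unfolded protein response 0 of 17 measured genes were past 2-fold and the median was -0.06, with Xbp1 the lowest, followed by Sdf2l1 (-0.43), and Herpud1 the highest (0.42). Ier3, an immediate early gene, read 408, 1761 and 912 (-0.95), and at 2 h 682 and 689 (0.01).

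Immediate early genes as a class had 0 of 30 measured members past 2-fold, near the 0.308% of all measured genes called higher and 0.382% called lower. Of the 30, 21 lay below 0, against 49.9% of all measured genes, and the median was -0.20. Csrnp1 read 2095 and 1236 (-0.76), Phlda1 839.8 and 503 (-0.74) and Dusp1, a phosphatase of MAP kinases, 1824 and 1099.8 (-0.73). Egr2, at 2238 and 1939 (-0.21), and Fos, at 1944 and 1542 (-0.33), stood far above the 25.9 and 9.30 of control cells without IL-3 on both sides. Cd69, an activation marker, was on the other side, at 781 and 1166 (0.58). The MAPK feedback genes, 10 of which were measured, had a median of -0.02, and share Ier3, Phlda1, Dusp1, Dusp2, Dusp4, Dusp5 and Dusp6 with this class.

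Several lower genes differed by less than 2-fold between control cells with 30 min of IL-3 and without it. S100a4, a calcium-binding protein linked to cell motility, read 1412 without IL-3, 1040.2 at 30 min and 1248 at 2 h with control siRNA, against 399 and 439 in knockdown cells, 2.61-fold and 2.84-fold lower. L1cam, a cell adhesion molecule, read 394, 403 and 227 in the control arrays and 176 and 136 in the siRNA arrays. Adam8, a membrane metalloprotease, read 365 without IL-3 and 400.0 and 173 at 30 min (-1.21), and 969 and 534 at 2 h (-0.86). Sec24a, a subunit of the COPII coat that carries proteins out of the endoplasmic reticulum, read 733 and 349 at 30 min (-1.07) but 1314 and 1133 at 2 h (-0.21). 1700018A23Rik, from a probe set open to cross-hybridisation, gave 711 and 272 (-1.39). Adam8 and L1cam were under 2-fold with the floor doubled. Spi1, which encodes the blood cell transcription factor PU.1, read 236 and 141 (-0.74). The summed signal of the 8 markers of the IL-3 receptor and of blood cells was 12502 in control and 8336 in knockdown cells at 30 min, most of it Csf2rb. At 2 h the sums were 12754 and 11775. Whether this shift had a part in the lower genes was not tested.

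Of 23 measured genes of the ATF4 and CHOP stress response 1 was called higher and 0 lower, and the median was 0.25. Above 0 lay 18 of the 23, against 50.1% of all measured genes. Ddit3, which encodes CHOP, a factor of the integrated stress response, read 65.7, 85.0 and 39.6 in the control arrays and 329.6 and 364 in the siRNA arrays, at least 2.75-fold higher at 30 min. Atf4, its activator, read 608 and 1018 (0.74), and the amino acid transporter chain Slc3a2 961 and 1653 (0.78). Ddit4, an inhibitor of mTORC1 that IL-3 lowered from 508 to 158, read 262 with Stat5 siRNA (0.73). Aars, an aminoacyl-tRNA synthetase (0.58), and Mthfd2, a mitochondrial folate enzyme (0.50), were above all control arrays at both times. Sesn2 was the lowest member, at -0.51, from a probe set that can cross-hybridise. With the floor doubled the bound for Ddit3 was under 2-fold.

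Hba-a1, alpha-globin, read 467, 471 and 447 in the control arrays and 1102 and 1172 in the knockdown arrays, 2.34-fold higher at 30 min and 2.62-fold at 2 h. Of 12 measured globin and erythroid genes it was the 1 called, and the median was 0.27. Above 0 lay 9 of the 12, against 50.1% of all measured genes. Itga2b, the platelet integrin chain, read 3050.4 and 4170.2 (0.45), the erythroid factor gene Klf1 450.4 and 605 (0.43) and Gata1 389 and 494 (0.35). Of 8 erythroid and megakaryocyte markers 6 reached the floor, and Alas2 and Pf4 were under it on all arrays. Their summed signal was 4689 in control and 6651 in knockdown cells at 30 min, and 3914 against 6099 at 2 h. That of myeloid and mast cell markers was 5324 and 7263 at 30 min, mainly Gzmb at 4474 and 6498, and 6911 and 6208 at 2 h. That of fibroblast and epithelial markers was 1235 and 1282. Whether these shifts had a part in the higher interferon, stress and globin genes was not tested.

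Of 13 measured genes of glycolysis and glucose uptake 0 were past 2-fold, 12 lay below 0, against 49.9% of all measured genes, and the median was -0.22. At 2 h 4 of 12 lay above 0. Pfkl, a subunit of phosphofructokinase, read 725 and 485 (-0.58), Pgam1 1101 and 788 (-0.48) and the triose phosphate isomerase gene Tpi1 2241 and 1693 (-0.40). The Pfkl and Pgam1 signals were below all control arrays at both times with Stat5 siRNA. Lists of proliferation and growth had no gene past 2-fold and medians near 0, namely G1/S and DNA replication (0.08 over 22 genes), G2/M and mitosis (-0.03 over 25), ribosome biogenesis and MYC-linked genes (0.06 over 31) and cytosolic ribosomal proteins (0.11 over 18). The same held for apoptosis regulators (-0.10 over 14), FOXO-linked genes (0.01 over 16), the respiratory chain (0.00 over 20), cholesterol and fatty acid synthesis (-0.06 over 15), heat shock proteins (-0.14 over 9) and housekeeping genes (0.06 over 11). Among proteasome subunits 1 of 25 was called lower, Psmc3.

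**Figure D4:**
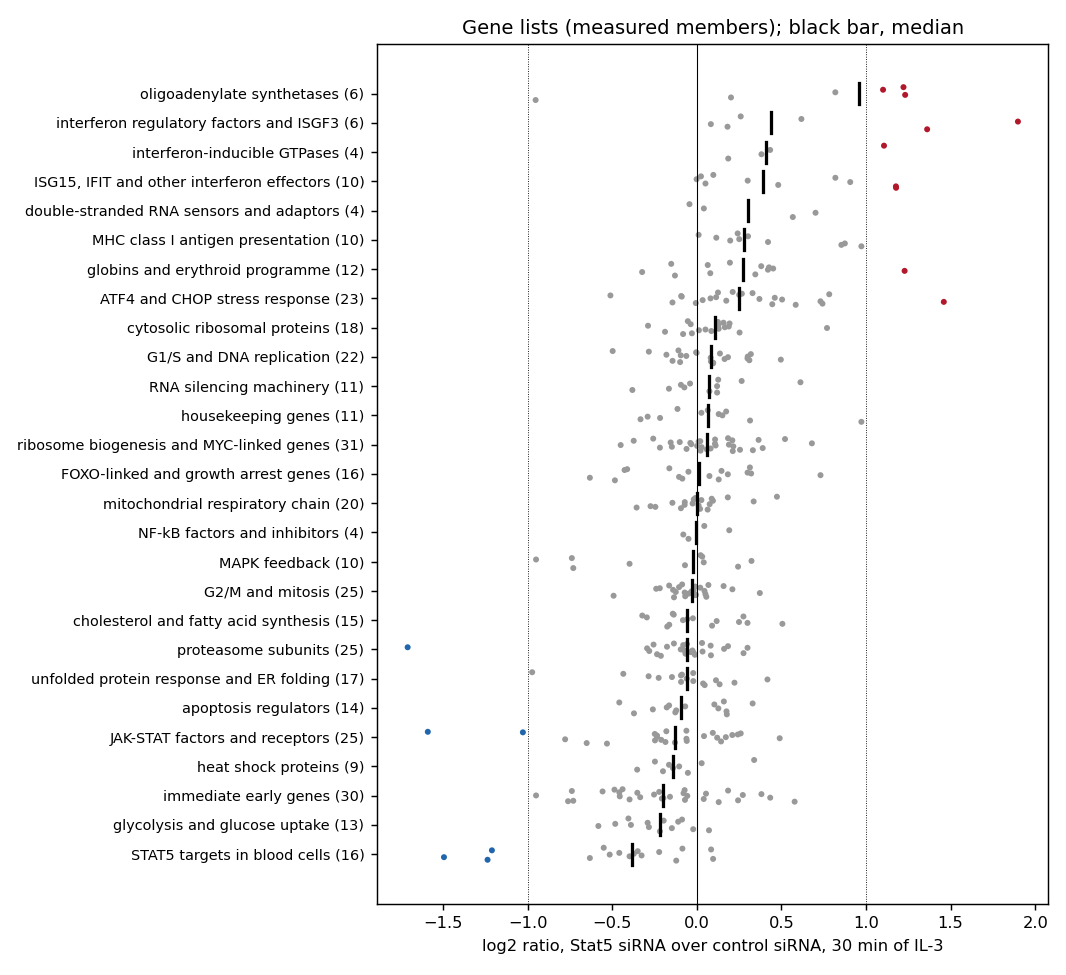
Log2 ratio of Stat5 siRNA over control siRNA at 30 min of IL-3 (x axis) for each measured gene of the pathway lists with 4 or more measured genes (marker lists are not drawn), the number measured in brackets. Points are genes, red and blue past 2-fold (dotted lines), and the black bar is the list's median. Of the lists drawn, the 6 of interferon genes have the highest medians, with oligoadenylate synthetases at 0.96, and STAT5 targets the lowest at -0.38.

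Genes read only on U74C were less firm. Egflam had the lowest ratio, at 665 and 119, at least 5.55-fold lower, followed by 1700113H08Rik and Fastk, at 602 and 174 (-1.79). The U74A probe set of Fastk, under the floor, read 101 and 119. All 3 rested on probe sets open to cross-hybridisation. Fbxo44 read 409 and 106 and Man2b2 354 and 107, at least 3.41-fold and 2.95-fold lower. Psmc3 read 943 and 288 on its U74C probe set (-1.71), but 3 U74A probe sets of the same gene, of the kind that can cross-hybridise, gave 0.21, -0.01 and 0.03. Among the higher genes, Ttll11 read 128 and 343 (1.43), Bpifa5 193 and 515 (1.41), Grid1 248 and 663 (1.42) and Akt1s1 1382 and 3619.8 (1.39). In all 4 the array without IL-3 read higher than the control array at 30 min, at 331, 332, 452 and 3487. The control arrays at 2 h read 226, 249, 211 and 1171. Ttll11 and Akt1s1 rested on probe sets open to cross-hybridisation. The U74A probe set of Akt1s1, under the floor, read 63.1 and 71.9, and the other Grid1 probe sets were under the floor on every array. With the floor halved Akt1s1 was 0.19 and Grid1 0.87. Allc, at 109.8 and 291, at least 2.43-fold higher, and AV205837, at least 2.39-fold, complete the 6 largest rises among genes read only on U74C.

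The arrays at 2 h share no array with the 30 min ratio and repeat the siRNA comparison at another time. The labels do not say whether both times came from 1 transfection. For genes read on U74A or U74B, 11 of 11 higher genes measured at 2 h were above 0 there, against 50.7% of all genes measured at both times, with 8 of them past 2-fold and a median of 1.39. Of the lower genes 11 of 12 were below 0, against 49.3%, with 3 past 2-fold, Cish, Bhlhe40 and S100a4, and a median of -0.72. For genes read only on U74C, 9 of 12 higher genes were above 0 at 2 h with a median of 0.33. Of the lower ones there 10 of 17 were below 0, with a median of -0.01. In all, 13 genes were past 2-fold the same way at both times, 9 higher and 4 lower, where 0.504% and 0.43% of all genes were called higher and lower at 2 h.

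The genes higher at both times were Ccl5, Irf7, Ddit3, Oas2, Oasl1, Oasl2, Bst2, Hba-a1 and, on U74C, Grid1. For interferon response genes the median log2 ratio was 0.40 at 30 min and 0.54 at 2 h, with 10 of 38 measured genes called higher at 2 h. The STAT5 target list had a median of -0.38 at 30 min and -0.10 at 2 h. Of its 15 genes measured at 2 h, 3 were called lower, 0 higher, and 3 lay above 0. That 2 h median is the value of Socs1, which is a bound. Stat5b itself differed less at 2 h (-0.49) than at 30 min (-1.59), as its control signal was 177 at 2 h and 499 at 30 min. Sec24a was close to the control at 2 h (-0.21). Socs1 read 128 in control and 57.7 in knockdown cells at 2 h, and Ccl9 137 and 79.2. Both siRNA signals were under the floor, so the ratios of Socs1 (-0.10) and Ccl9 (-0.19) are bounds and do not show closeness.

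**Figure D5:**
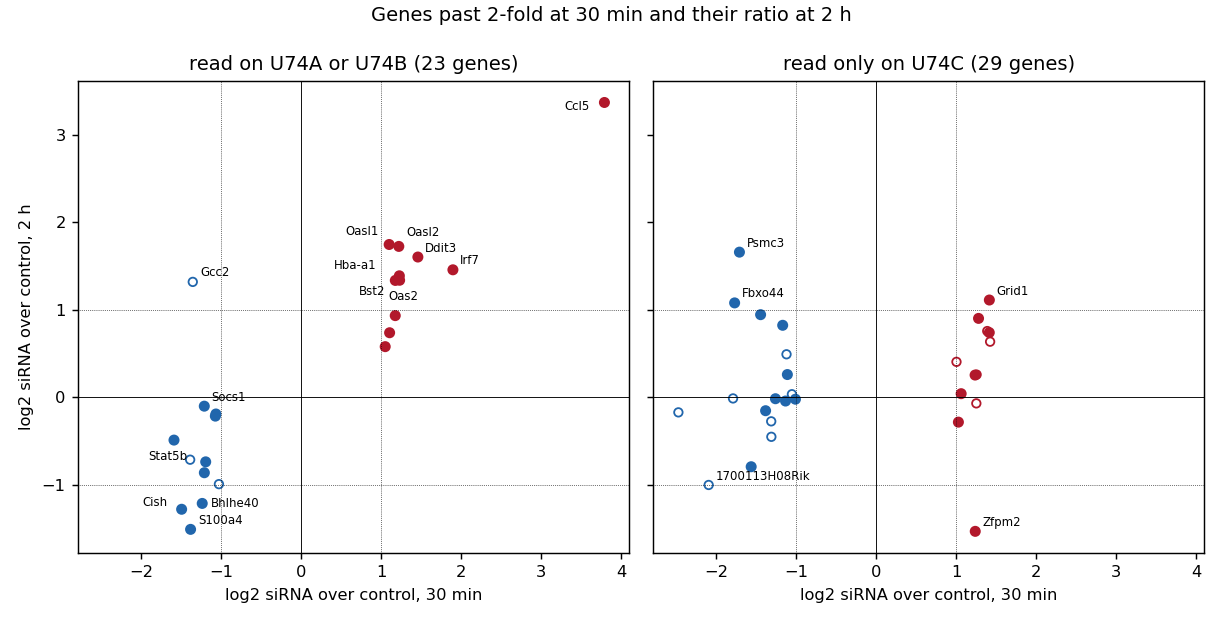
Log2 ratio of Stat5 siRNA over control siRNA at 30 min (x axis) and 2 h (y axis) for genes past 2-fold at 30 min and measured at 2 h, separately for genes read on U74A or U74B and genes read only on U74C. Each point is a gene from 1 array per side and time, red for higher and blue for lower at 30 min, open where all its measured probe sets are of a kind that can cross-hybridise, with dotted lines at 2-fold. On U74A and U74B the 11 higher genes all lie above 0 at 2 h and of the 12 lower ones only Gcc2 does. Of genes read only on U74C, 9 of 12 higher ones lie above 0 at 2 h and 10 of 17 lower ones below 0.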

How the data were processed

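The authors deposited MAS5 intensity values per probe set, per the submitters' processing notes and the series' design text, for 15 arrays without replicates. The trimmed mean of each array lay between 150.04 and 150.1. Detection calls were not used here. Arrays were scaled to 1 trimmed mean, leaving out 2% at each end. The floor is the signal that 14553 of 36701 non-control probe sets, the number given in the design text, reached on their highest array.

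The platform annotation gave 1 symbol for 29131 probe sets, several for 724 and none for 6846. A gene's value is the median over its measured probe sets, and those whose names end in _f_at, _i_at, _r_at or _x_at, which can cross-hybridise, were used only for genes without any other. Python 3.11.15, pandas 2.3.3, numpy 2.4.6 and matplotlib 3.10.9 were used, and the steps were tested on simulated data. No p-value was computed.

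Named are Stat5a and Stat5b, the 12 largest rises and falls on U74A or U74B and the 6 on U74C, genes of probe sets past 2-fold in the study's selection, genes called at both times, and called members and up to 6 others of each list. Genes, lists and alternatives were chosen with earlier results of these data known. The order of the 5 conditions and the windows of promoter sequence were chosen after their values were seen. Cerk, Cxcl16, Zfpm2 and single list members were also named after their values were seen.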

Additional observations from a re-analysis of the deposited data

Results flagged for a closer look

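Genes past 2-fold one way at 30 min and past 2-fold the other way at 2 h are given here. Each ratio rests on 1 array per side, and the difference between the times was not tested. Psmc3, a proteasome ATPase subunit, had a log2 ratio of -1.71 at 30 min and 1.66 at 2 h on U74C, from control signals of 943 and 228. Fbxo44, a substrate adaptor of a ubiquitin ligase, had -1.77 and 1.08, both bounds. Zfpm2, a cofactor of GATA factors, had 1.24 and -1.53, both bounds, and all of its measured signal came from 1 U74C probe set. Gcc2, a golgin of the trans-Golgi network, had -1.35 and 1.32 from a U74B probe set that can cross-hybridise, with signals of 503 and 197 at 30 min and 167 and 416 at 2 h.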

How the results depend on the processing

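Of 2348 values recomputed under other settings, 2207 stayed close to the value given, 138 moved and 3 reversed. Close meant within 1.5 times for counts, 1 SD of a single ratio for log2 ratios, and a 95% binomial interval for shares. A close value could still cross 2-fold. Of 375 recomputed values of called named genes, 23 were under 2-fold with the same sign. With the floor halved 199 probe sets were higher and 195 lower, 74 and 87 genes, and 58 probe sets were induced and lower. With the floor doubled these were 23 and 23, 10 and 18, and 8, and 3 interferon genes were higher. With signals not raised to the floor they were 199 and 195, 92 and 106, and 58. Without probe sets that can cross-hybridise 30 probe sets were higher and 33 lower, 20 genes lower and 11 probe sets induced and lower. On U74A and U74B alone these were 18 and 15, 12 and 12 genes, and 4, with 100% of the higher and 91.7% of the lower genes on the same side of 0 at 2 h, against 87.0% and 72.4%. Median scaling gave 37 induced and lower probe sets. At 1.5-fold 353 and 387 probe sets, 168 and 189 genes and 131 induced and lower probe sets passed, 16 interferon genes were higher, and 62.1% of the higher genes kept their side at 2 h. At 3-fold these were 10 and 11, 2 and 6, 2, 1 and 100%, and 0 STAT5 targets were lower. 1 interferon gene was lower with median scaling, with the floor halved, with signals not raised and at 1.5-fold. Fastk reversed to 0.23 with the floor halved and 0.22 with a floor per design, and Psmc3 to 0.031 on U74A and U74B alone. The causes were not tested, beyond the fewer or more probe sets that each setting admits. Of 40 named genes that were called, 16 stayed past 2-fold under every setting that reads them, among them Ccl5, Cish, Bhlhe40, S100a4, Bst2, Ifi27, Oasl1 and Hba-a1. With the floor doubled Irf7 was 0.90, Oas2 0.88 and Irf1 0.97, and Socs1, Ddit3, Oasl2, Irgm2, Adam8 and L1cam were also under 2-fold. Lgals9 was 0.94 with median scaling, and Stat5b -0.94 with the floor halved. Stat5a was -0.69 with the floor doubled and -0.98 with the brightest probe set. No paired analysis was possible because each condition and design had 1 array, and for the same reason no array could be left out. Dim probe sets are limited by the floor, under which signals have no order.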

Other observations

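Probe sets without a single gene symbol were left out of all gene counts. Of 1812 that were measured, 15 were 2-fold or more higher and 16 lower with Stat5 siRNA at 30 min. A U74A probe set annotated to the paired immunoglobulin-like receptor genes Pirb, Pira1, Pira2 and Lilra6, receptors of myeloid and B cells that bind MHC class I, read 435 without IL-3, 446 in control and 149 in knockdown cells at 30 min, and 459.6 against 142 at 2 h. Both siRNA signals were below all 3 control signals. A U74A probe set annotated to the interferon-inducible GTPase genes Tgtp1 and Tgtp2 read 42.9 against 270.4 at 30 min and 73.1 against 566 at 2 h. A U74A probe set shared by the MHC class I genes H2-Q5, H2-Q7 and H2-Q9, which can cross-hybridise, read 454 against 1059.9 at 30 min and 532 against 828 at 2 h.

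The probe set with no symbol and the largest response to IL-3 among those lower with Stat5 siRNA was on U74C. It read 152 without IL-3, 2199.7 in control and 926 in knockdown cells at 30 min, a 14.5-fold rise with IL-3. At 2 h it read 1298 and 923. The unnamed U74B probe set that met both conditions of the study's selection read 115, 369 and 112 in the same order, and 206 and 104 at 2 h.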
